A study of Mus musculus with 90 samples.

Results

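The endoplasmic reticulum (ER) chaperones and folding factors described here are 10 genes, Hspa5, Hsp90b1, Pdia4, Pdia6, Calr, Dnajb9, Sdf2l1, Hyou1, Creld2 and Herpud1. They were chosen by symbol, matched to the Entrez gene IDs of a pair of count tables, and make up 10 of the 24475 genes in each table. Liver polyA RNA of mice was sequenced as 90 strand-specific libraries in 9 groups of 10. In experiment 1, each group had received an adeno-associated virus (AAV8) carrying a short hairpin RNA, and the groups were Gcgr knockdown (KD), Gnas KD, PKA KD, Epac2 KD and Control. In experiment 2, the groups were Prkar1a KD + Gcgr mAb, Prkar1a KD + Control mAb, Control AAV + Gcgr mAb and Control AAV + Control mAb, so that every mouse had received an AAV and an antibody. Strain, sex, age, vector dose, hairpin sequence and time after injection are not given in the labels used here. The labels give replicate numbers but do not state whether 1 animal stands behind each, so every p-value here reflects library-to-library spread, which may be partly technical.

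The glucagon receptor (Gcgr) of the hepatocyte signals through the G protein alpha subunit encoded by Gnas to raise cAMP. Cyclic AMP acts on protein kinase A (PKA), whose catalytic subunits are held inactive by regulatory subunits such as Prkar1a, and on the exchange factor Epac2 (gene Rapgef4). The labels describe the study as a comparison of knockdowns along this pathway, and of PKA activation with and without inhibition of the receptor. The hepatocyte secretes most plasma proteins, which fold in the ER with the help of the chaperones described here. When unfolded proteins accumulate, the sensors Ern1 (IRE1), Atf6 and Eif2ak3 (PERK) start the unfolded protein response, in which Xbp1 and Atf6 bind ER stress response elements in chaperone promoters.

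All 10 genes passed the filter on low counts in both experiments. Per length of exon, in the control livers of experiment 2 and then of experiment 1, Calr, a lectin chaperone that holds calcium, had the highest level, 297 ± 22.2 and 433 ± 54.5 CPM per kilobase (mean ± SD, n = 10 each; CPM, counts scaled to a common library size). Hsp90b1, the ER form of HSP90, stood at 209 ± 25.0 and 178 ± 23.8, and Hspa5 (BiP), the ER form of HSP70, at 174 ± 51.2 and 145 ± 31.0 CPM per kilobase. Pdia4 and Pdia6, disulfide isomerases, stood at 97.7 and 60.5 CPM per kilobase in experiment 2 and at 131 and 70.3 in experiment 1. Herpud1, a membrane protein that assembles the ER degradation machinery, stood at 90.5 and 109, and Hyou1, a nucleotide exchange factor of BiP, at 20.6 and 37.4 CPM per kilobase. Levels below those of Calr, Hsp90b1 and Hspa5 were also measured for Creld2, a cysteine-rich ER folding factor (15.9 and 25.6 CPM per kilobase). Sdf2l1, a partner of BiP, stood at 22.4 and 23.0, and Dnajb9 (ERdj4, a J-domain co-chaperone of BiP) at 18.4 and 11.1 CPM per kilobase. In these control livers Creld2, Sdf2l1 and Dnajb9 ranked between 1344 and 2629, counted from the highest of all genes with an exon length. Hspa5 (Entrez gene 14828) lies at chr2:34772090-34776529 on the plus strand and Herpud1 (Entrez gene 64209) at chr8:94386429-94395371 on the plus strand, in GRCm38.p6.

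The promoters of Hspa5 and Herpud1 are shown because these 2 genes behaved differently in the results. Of the 10 genes, all but Hyou1 had an entry in the RefSeq promoter table (GRCm38.p6), which covers 250 bases before the gene start and 50 bases from it. In the sequences, printed 5′ to 3′ on the strand of the gene, capitals mark the ER stress response element (ERSE, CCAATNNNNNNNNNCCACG) or its shorter form ERSE-II (ATTGGNCCACG), searched on both strands. Hspa5 (chr2:34771840-34772139, plus strand) holds 1 ERSE, and Herpud1 (chr8:94386179-94386478, plus strand) holds 1 ERSE-II.

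Hspa5 promoter: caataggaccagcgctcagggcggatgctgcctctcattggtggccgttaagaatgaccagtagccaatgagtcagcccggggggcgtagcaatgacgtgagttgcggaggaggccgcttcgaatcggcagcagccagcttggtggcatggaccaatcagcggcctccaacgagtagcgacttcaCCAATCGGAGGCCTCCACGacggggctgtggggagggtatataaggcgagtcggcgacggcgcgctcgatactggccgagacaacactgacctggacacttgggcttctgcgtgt

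Herpud1 promoter: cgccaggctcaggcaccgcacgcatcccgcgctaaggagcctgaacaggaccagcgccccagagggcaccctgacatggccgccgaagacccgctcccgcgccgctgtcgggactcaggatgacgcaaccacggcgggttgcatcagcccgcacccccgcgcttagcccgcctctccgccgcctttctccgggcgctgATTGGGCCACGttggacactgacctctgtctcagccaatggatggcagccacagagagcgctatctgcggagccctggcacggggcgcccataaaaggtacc

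The ERSE occurred in 5 of the 9 promoters, against 0.119% of all 32851 promoters in the table. Besides Hspa5, it was in Hsp90b1 (once on each strand), Pdia6, Calr and Creld2, shown here with 8 bases on each side; in Calr, Creld2 and the second Hsp90b1 match it lies on the strand opposite to the gene, so the capitals show its reverse complement. The windows are chr10:86705630-86705664 and chr10:86705525-86705559 (minus strand) for Hsp90b1, chr12:17266483-17266517 (plus strand) for Pdia6, chr8:84847067-84847101 (minus strand) for Calr and chr15:88819512-88819546 (plus strand) for Creld2.

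Hsp90b1 first match: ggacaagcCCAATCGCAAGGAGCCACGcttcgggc

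Hsp90b1 second match: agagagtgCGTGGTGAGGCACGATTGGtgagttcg

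Pdia6 match: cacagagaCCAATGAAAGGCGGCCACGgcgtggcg

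Calr match: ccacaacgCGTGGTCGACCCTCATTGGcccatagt

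Creld2 match: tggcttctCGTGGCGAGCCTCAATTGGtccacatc

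The ERSE-II occurred in 0.0365% of all promoters and, among the 9, in Herpud1 alone. The windows of Pdia4, Dnajb9 and Sdf2l1 held neither letter string. The UPRE (TGACGTGG, in 0.676% of promoters) and the full cAMP response element (CRE, TGACGTCA, in 1.79%) were in none of the 9. The 5 letters TGACG, the core shared by both and present in 20.8% of all promoters, were in Hspa5, Dnajb9 and Herpud1. A match is a description of letters, and the absence of one says only that those letters are not in this window.

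**Figure D1:**
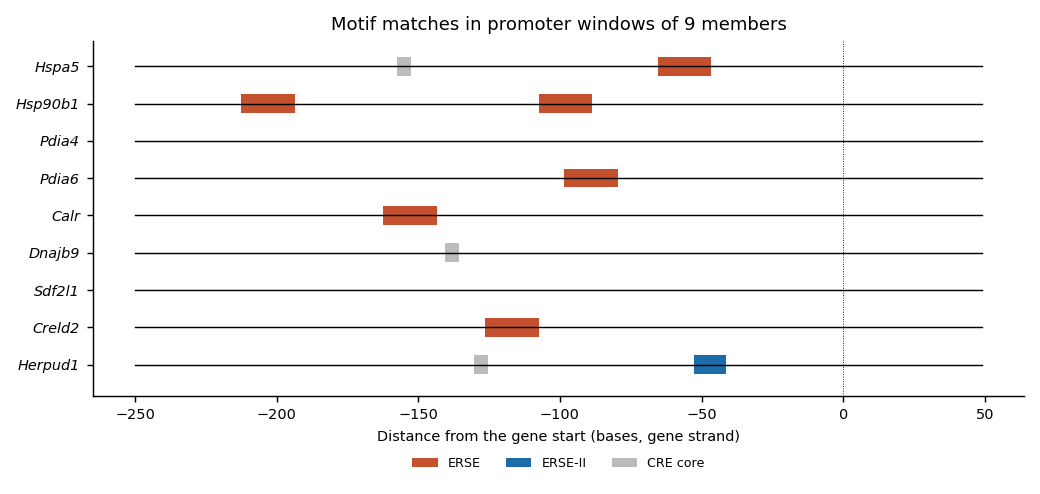
Positions of ERSE, ERSE-II and TGACG (CRE core) matches in the promoter windows of 9 genes; the x axis is the distance from the gene start in bases on the strand of the gene, and each line is the window from 250 bases before the start. The ERSE lies within 212 bases before the start in all 5 genes that hold it, and Herpud1 carries the ERSE-II in its place.

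Total counts per library lay between 20.8 and 33.7 M counts (median 25.3) in experiment 1 and between 8.87 and 19.5 M counts (median 16.5) in experiment 2. The targeted transcripts were lower in each knockdown group: Gcgr by a log2 fold change of -1.91 with Gcgr KD, Gnas by -2.80 with Gnas KD, Prkaca by -3.06 and Prkacb by -2.06 with PKA KD, and Rapgef4 by -3.27 with Epac2 KD. Prkar1a was lower by -1.87 in Prkar1a KD + Gcgr mAb and by -1.94 in Prkar1a KD + Control mAb, relative to Control AAV + Control mAb. Hepatocyte markers were abundant in every library, and their summed level was at least 35297 CPM. Replicate 3 of Control AAV + Gcgr mAb held pancreatic transcripts: 8 summed acinar markers reached 919 CPM there, against 30.0 CPM in the next highest library of experiment 2. All 8 were highest there, among them Ctrb1 (chymotrypsinogen) with 232 CPM, against at most 1.40 CPM in the other 39 libraries. Within its group this library ranked highest for Hspa5, Hsp90b1, Pdia6, Calr, Sdf2l1 and Creld2. It was in the middle of the range for Herpud1 and lowest for Dnajb9. Calls among the 10 genes that rest on its group were therefore also made without it, and those that changed are given. Values of other genes, lists and markers in that group are given only with it. Replicate 2 of the same group and replicate 10 of Control AAV + Control mAb were least like the rest of their groups over all genes (median r of 0.937 and 0.962), and leaving out either ended no call among the 10 genes.

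The most calls among the 10 genes came from Prkar1a KD + Gcgr mAb, and the largest change of any of them was that of Herpud1. Herpud1 fell in both Prkar1a KD groups to about the same level whichever antibody was given. Its level was 90.3, 116 and 138 CPM (lowest, median and highest of 10 libraries, scaled by TMM factors) in Prkar1a KD + Gcgr mAb and 73.0, 101 and 130 CPM in Prkar1a KD + Control mAb. It was 141, 245 and 348 CPM in Control AAV + Gcgr mAb and 159, 206 and 293 CPM in Control AAV + Control mAb. Every library of the Prkar1a KD groups lay below every library of the Control AAV groups, with no overlap. The share of all genes tested that separate in this way is not given here. Relative to Control AAV + Control mAb, the log2 fold change was -0.89 ± 0.11 (SE) in Prkar1a KD + Gcgr mAb and -1.08 ± 0.11 in Prkar1a KD + Control mAb, with adjusted p of 1.64e-08 and 1.22e-10 (edgeR's quasi-likelihood test, Benjamini-Hochberg adjusted over all genes tested). The test for an interaction of knockdown and antibody gave 0.01 ± 0.16 on the log2 scale, with a 95% interval of -0.31 to 0.33 and an adjusted p of 0.971.

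**Figure D2:**
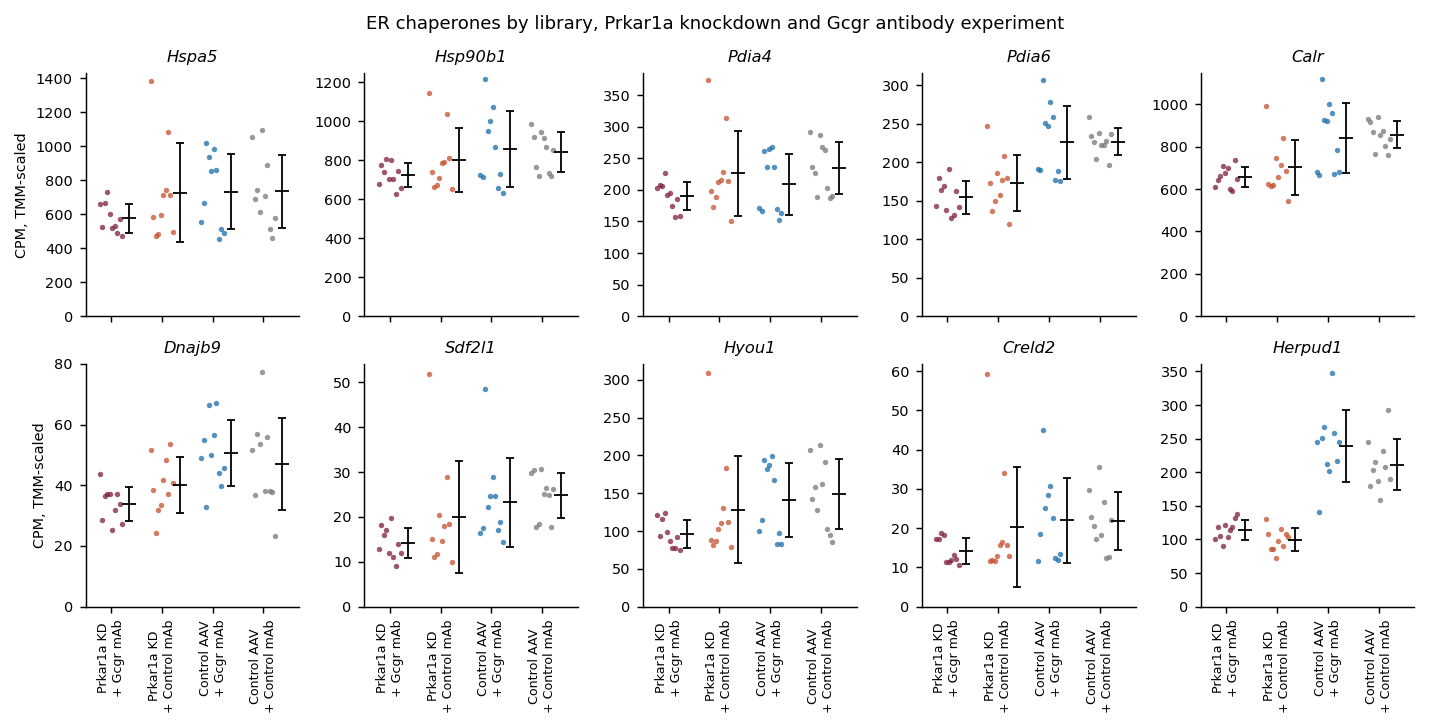
Level of each of the 10 genes in every library of experiment 2, in CPM scaled by TMM factors; points are libraries, and the bar beside them is the mean with the SD of 10 libraries. Herpud1 separates the Prkar1a KD groups (73.0 to 138 CPM) from the Control AAV groups (141 to 348 CPM), while Hspa5 ranges overlap in all 4 groups.

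With Prkar1a KD + Control mAb against Control AAV + Control mAb, 3 of the 10 genes were called lower at an adjusted p under 0.05 and none higher; 26.9% of all 12847 genes tested were called lower there, a share close to that of the 10 genes. The other called genes were Pdia6 and Calr. Pdia6 stood at 119, 175 and 247 CPM (lowest, median, highest) in Prkar1a KD + Control mAb and at 197, 227 and 259 CPM in Control AAV + Control mAb, a log2 fold change of -0.39 ± 0.10 (adjusted p = 0.0018). In 8 of the 10 Prkar1a KD + Control mAb libraries Pdia6 was below every Control AAV + Control mAb library. Calr stood at 541, 669 and 989 CPM in Prkar1a KD + Control mAb and at 762, 860 and 941 CPM in Control AAV + Control mAb, a log2 fold change of -0.28 ± 0.09 (adjusted p = 0.00771). For Calr, 8 of the 10 Prkar1a KD + Control mAb libraries were below every Control AAV + Control mAb library and 1 was above them all. When libraries were scaled by their totals alone, which moved the median of all genes by 0.14, the Calr value was -0.14 and its call was lost (adjusted p = 0.15).

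The remaining 7 genes, Hspa5, Hsp90b1, Pdia4, Dnajb9, Sdf2l1, Hyou1 and Creld2, had log2 fold changes between -0.31 and -0.01 in that comparison, none called. One library, replicate 1 of Prkar1a KD + Control mAb, was the highest of its group for Hspa5 (1381 CPM), Hyou1 (309 CPM), Creld2 (59.2 CPM) and Sdf2l1 (52.0 CPM). Hspa5 in that group spanned 471 to 1381 CPM, a 2.93-fold range. Without this library 5 genes were called lower: Sdf2l1 (log2 fold change -0.60, adjusted p = 0.00851) and Hyou1 (-0.47, adjusted p = 0.0367) joined the first 3. The median log2 fold change of the 10 genes was -0.22, against 0.02 over all genes tested.

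With Prkar1a KD + Gcgr mAb against Control AAV + Control mAb, 6 of the 10 genes were called lower and none higher, where 24.2% of all genes tested were called lower. Besides Herpud1 these were Sdf2l1, Hyou1, Pdia6, Dnajb9 and Calr. Sdf2l1 stood at 8.96, 13.4 and 19.7 CPM in Prkar1a KD + Gcgr mAb and at 17.7, 25.7 and 30.6 CPM in Control AAV + Control mAb, the largest fall after Herpud1 at -0.81 ± 0.23 (adjusted p = 0.00378). In 8 of 10 Prkar1a KD + Gcgr mAb libraries Sdf2l1 was below every Control AAV + Control mAb library. Hyou1 stood at 75.1, 92.8 and 124 CPM in Prkar1a KD + Gcgr mAb and at 85.8, 150 and 214 CPM in Control AAV + Control mAb, a log2 fold change of -0.62 ± 0.22 (adjusted p = 0.0168). All 10 Prkar1a KD + Gcgr mAb libraries lay below the Control AAV + Control mAb median for Hyou1, although the ranges overlapped.

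Pdia6 stood at 128, 152 and 191 CPM in Prkar1a KD + Gcgr mAb and at 197, 227 and 259 CPM in Control AAV + Control mAb, a log2 fold change of -0.55 ± 0.11 (adjusted p = 3.08e-05). Calr stood at 592, 652 and 735 CPM in Prkar1a KD + Gcgr mAb and at 762, 860 and 941 CPM in Control AAV + Control mAb, a log2 fold change of -0.38 ± 0.09 (adjusted p = 0.000589). Neither gene's ranges overlapped between these groups. The share of all genes tested whose ranges did not overlap is not given here, and 50.2% were called in either direction. Dnajb9 stood at 25.2, 35.2 and 43.6 CPM in Prkar1a KD + Gcgr mAb and at 23.2, 44.98 and 77.4 CPM in Control AAV + Control mAb, with overlapping ranges and a log2 fold change of -0.47 ± 0.15 (adjusted p = 0.00998; 0.0523 with scaling by library totals). The 4 genes that missed the threshold were Creld2 (-0.63 ± 0.28, adjusted p = 0.0599), Hspa5 (-0.35 ± 0.18, adjusted p = 0.106), Pdia4 (-0.30 ± 0.13, adjusted p = 0.0542) and Hsp90b1 (-0.22 ± 0.10, adjusted p = 0.0805). DESeq2 called Pdia4 (adjusted p = 0.0398) and Creld2 (adjusted p = 0.035) lower. The median over the 10 genes was -0.51, against 0.01 over all genes.

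**Figure D3:**
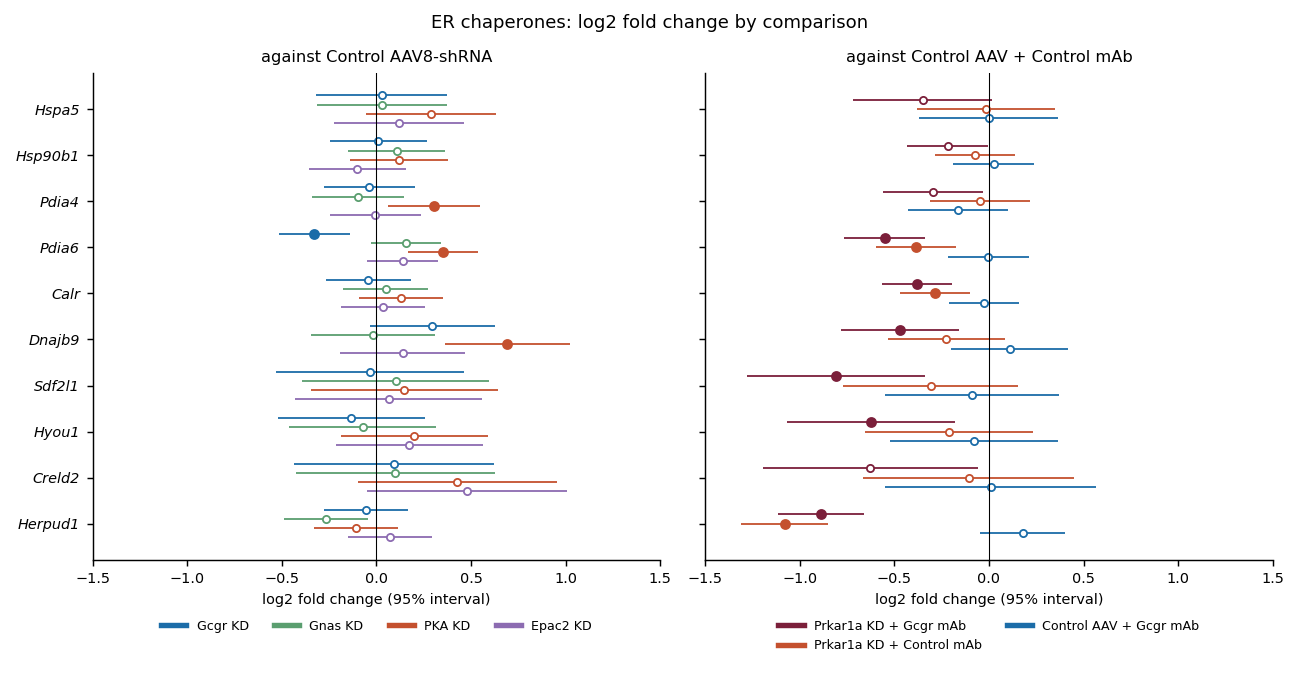
Log2 fold change of each gene with its 95% interval; the left panel sets the 4 knockdowns of experiment 1 against Control, the right panel the groups of experiment 2 against Control AAV + Control mAb, and filled points passed an adjusted p of 0.05. The right panel shows 6 filled points for Prkar1a KD + Gcgr mAb, 3 for Prkar1a KD + Control mAb and none for Control AAV + Gcgr mAb.

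With Prkar1a KD + Gcgr mAb against Control AAV + Gcgr mAb, where both groups carry the receptor antibody, 7 of the 10 genes were called lower, where 26.6% of all genes tested were. This comparison shares the Prkar1a KD + Gcgr mAb libraries with the one before. The log2 fold changes were -1.07 ± 0.11 for Herpud1 (adjusted p = 1.96e-10), -0.72 ± 0.23 for Sdf2l1, -0.58 ± 0.15 for Dnajb9, -0.55 ± 0.11 for Pdia6, -0.54 ± 0.22 for Hyou1, -0.36 ± 0.09 for Calr and -0.24 ± 0.10 for Hsp90b1. Creld2 (-0.63), Hspa5 (-0.35) and Pdia4 (-0.13) were not called. The median over the 10 genes was -0.55, against -0.01 over all genes. Without replicate 3 of Control AAV + Gcgr mAb, the library with pancreatic transcripts, Hsp90b1 (-0.17, adjusted p = 0.145) and Hyou1 (-0.48, adjusted p = 0.0687) were no longer called, and the other 5 calls held. With Prkar1a KD + Control mAb against Control AAV + Gcgr mAb, Herpud1 (-1.26), Pdia6 (-0.38) and Calr (-0.26) were called lower, 3 of 10 where 27.9% of all genes were. Calr was not called there with scaling by library totals (-0.15, adjusted p = 0.126). Dnajb9 was called there as well without the library with pancreatic transcripts (-0.39, adjusted p = 0.0282), and Dnajb9 (-0.39) and Sdf2l1 (-0.51) were without replicate 1 of Prkar1a KD + Control mAb.

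The receptor antibody alone moved none of the 10 genes past the threshold. With Control AAV + Gcgr mAb against Control AAV + Control mAb, log2 fold changes lay between -0.17 (Pdia4) and 0.18 (Herpud1), with Hspa5 at -0.00, Pdia6 at -0.00 and Creld2 at 0.01, while 8.19% of all genes were called in either direction. The intervals were wide for Creld2 and Sdf2l1: 95% limits were -0.55 to 0.57 for Creld2 and -0.55 to 0.37 for Sdf2l1, against -0.21 to 0.16 for Calr. Within Prkar1a KD, the receptor antibody against the control antibody gave no call for any gene in the table (0% of 12847 by edgeR and 0 by DESeq2, with 846 genes at an unadjusted p under 0.05). There the 10 genes had log2 fold changes between -0.52 (Creld2) and 0.19 (Herpud1), with a median of -0.25, against -0.003 over all genes tested. In value, 9 were lower with the receptor antibody, and the share of all genes lower in value is not given here. The interaction term was called for none of the 10, where 4.08% of all genes were called. Its estimates lay between -0.53 (Creld2) and 0.01 (Herpud1). The larger number of calls in Prkar1a KD + Gcgr mAb than in Prkar1a KD + Control mAb is therefore not shown to be a difference between the antibodies.

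By mean log2 CPM, 9 of the 10 genes were lowest in Prkar1a KD + Gcgr mAb, and Herpud1 was lowest in Prkar1a KD + Control mAb. The share of all genes lowest in Prkar1a KD + Gcgr mAb is not given here. Most of the 10 genes varied together between libraries, so they do not count as separate observations. The means of Prkar1a KD + Control mAb include its replicate 1, the highest of that group for Hspa5, Hyou1, Creld2 and Sdf2l1. The 4 groups were ordered for each gene, and of the 30 neighbouring pairs only 3 differed past the threshold. For Pdia6 and Calr the gap lay between Control AAV + Gcgr mAb and Prkar1a KD + Control mAb, and for Herpud1 between Control AAV + Control mAb and Prkar1a KD + Gcgr mAb. The spread between libraries differed by gene. In Prkar1a KD + Gcgr mAb, Hspa5 levels spanned 470 to 730 CPM, a 1.55-fold range, against 2.93-fold in Prkar1a KD + Control mAb, 2.23-fold in Control AAV + Gcgr mAb and 2.38-fold in Control AAV + Control mAb. Sdf2l1 spanned a wider range in Prkar1a KD + Gcgr mAb (2.20-fold) than in Control AAV + Control mAb (1.73-fold), as did Pdia6 (1.49-fold and 1.32-fold), and Calr spanned 1.24-fold and 1.23-fold. These spreads were not tested against each other.

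Other ER genes were counted by list, beside shares over all genes of 24.2% lower and 26% higher in Prkar1a KD + Gcgr mAb against Control AAV + Control mAb, and 26.9% lower and 29.3% higher in Prkar1a KD + Control mAb. In the list of ER translocation and N-glycosylation genes, 15 of 24 were called lower and 1 higher in Prkar1a KD + Gcgr mAb against Control AAV + Control mAb, and again 15 and 1 in Prkar1a KD + Control mAb. Among them, the translocation genes Sec62, Sec61b and Srpr fell by 0.69, 0.56 and 0.53 on the log2 scale in Prkar1a KD + Gcgr mAb, and Stt3b, a catalytic subunit of oligosaccharyltransferase, rose by 0.21. Of 20 other ER chaperones and co-chaperones, 10 were lower and 2 higher in Prkar1a KD + Gcgr mAb, and 8 were lower and 1 higher in Prkar1a KD + Control mAb. Prkcsh, the regulatory subunit of glucosidase II, had log2 fold changes of -1.03 ± 0.06 in Prkar1a KD + Gcgr mAb and -1.14 ± 0.06 in Prkar1a KD + Control mAb. Manf, a BiP-binding factor, fell with Prkar1a KD + Gcgr mAb (-0.92 ± 0.22, adjusted p = 0.000686).

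The disulfide isomerases and oxidases went both ways, with 7 of 16 lower and 4 higher in Prkar1a KD + Gcgr mAb. P4hb, the founding protein disulfide isomerase, fell (-0.50 ± 0.06) and Pdia5 rose (0.89 ± 0.09). Of 17 ER exit and retrieval genes tested, 9 were lower and 4 higher. Of 18 genes of ER-associated degradation 6 were lower and 4 higher, near the shares over all genes. Among chaperones of other compartments, 6 of 19 cytosolic genes rose and 2 fell, and 3 of 9 mitochondrial genes rose and none fell, beside the 26% of all genes called higher. Hspa9, the mitochondrial HSP70, rose by 0.82 ± 0.05, and Hspb8, a small heat shock protein, by 1.08 ± 0.08.

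Of the 14 sensors and factors of the unfolded protein response, 3 rose and 4 fell in Prkar1a KD + Gcgr mAb against Control AAV + Control mAb. Xbp1, the factor activated by IRE1, had a log2 fold change of -0.39 ± 0.08 (adjusted p = 4.83e-05) in Prkar1a KD + Gcgr mAb and -0.28 ± 0.08 (adjusted p = 0.0017) in Prkar1a KD + Control mAb. Atf6 rose by 0.29 ± 0.08 and 0.35 ± 0.08 in the same groups. Ern1 (0.18 and 0.26), Eif2ak3 (-0.33 and -0.24) and Atf4 (0.09 and 0.12) were not called in either, and Ddit3 (CHOP) stood at 0.28 (not called) and 0.43 (adjusted p = 0.0498). Xbp1 was the factor with an interaction call, at -0.41 ± 0.11 (adjusted p = 0.0235): it rose with Gcgr mAb in Control AAV (0.30 ± 0.08, adjusted p = 0.00888) and stood at -0.11 with Gcgr mAb in Prkar1a KD. The rise in Control AAV and the interaction rest on the group with the library of pancreatic transcripts, and are not given without it. All these values are summed transcripts and do not separate the spliced form of Xbp1. The 7 PERK and integrated stress response targets did not move together: Asns rose by 4.81 ± 0.56 and Trib3 fell (-1.20 ± 0.33) in Prkar1a KD + Gcgr mAb.

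Markers of cell types moved with the same comparisons. The 10 hepatocyte markers summed to 35297 to 64470 CPM in Prkar1a KD + Gcgr mAb and 39155 to 53477 CPM in Prkar1a KD + Control mAb, against 71788 to 89452 CPM in Control AAV + Gcgr mAb and 82329 to 93222 CPM in Control AAV + Control mAb. All 10 changed relative to Control AAV + Control mAb, 4 up (Tat by 2.59, Cps1 by 1.45 in Prkar1a KD + Gcgr mAb) and 6 down (Cyp2e1 by -1.75, Ttr by -1.58). None of the 10 Kupffer cell and macrophage markers was called in Prkar1a KD + Gcgr mAb against Control AAV + Control mAb. There 4 of 10 endothelial and 4 of 10 stellate cell markers were lower, beside 24.2% of all genes tested. Against Control AAV + Gcgr mAb, 8 of 10 Kupffer cell, 9 of 10 endothelial and 6 of 10 stellate cell markers were lower, beside 26.6% of all genes. That reference group itself had higher Adgre1 (0.81), a Kupffer cell marker, and Stab2 (0.62), an endothelial marker, than Control AAV + Control mAb. It includes the library with pancreatic transcripts. Endothelial markers summed to 113 to 211 CPM in Prkar1a KD + Gcgr mAb, against 185 to 318 CPM in Control AAV + Gcgr mAb and 128 to 279 CPM in Control AAV + Control mAb. Kupffer cell markers summed to 129 to 335 CPM in Prkar1a KD + Gcgr mAb, 163 to 661 CPM in Control AAV + Gcgr mAb and 155 to 330 CPM in Control AAV + Control mAb. Stellate cell markers summed to 240 to 386, 262 to 965 and 309 to 450 CPM in the same order. No marker of these 4 lists was at 0 throughout a group. Their part in the chaperone results was not tested, and in whole liver fewer cells of a type and less RNA per cell cannot be told apart.

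In experiment 1 the values of the 10 genes differed less between groups, and against Control only Pdia6 was called in more than 1 knockdown. PKA KD raised 3 genes, Dnajb9, Pdia6 and Pdia4, of the 10, where 17.7% of all 13574 genes tested were called higher. Dnajb9 stood at 29.8, 43.4 and 83.0 CPM (lowest, median, highest) in PKA KD and at 17.2, 28.2 and 41.1 CPM in Control, a log2 fold change of 0.69 ± 0.16 (adjusted p = 0.000755). All 10 PKA KD libraries lay above the Control median and 6 above every Control library. Pdia6 stood at 283, 325 and 431 CPM in PKA KD and at 213, 268 and 297 CPM in Control, a log2 fold change of 0.35 ± 0.09 (adjusted p = 0.00235), and 8 PKA KD libraries lay above every Control library. Pdia4 stood at 301, 349 and 570 CPM in PKA KD and at 217, 327 and 366 CPM in Control, a log2 fold change of 0.30 ± 0.12 (adjusted p = 0.0469).

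The Pdia4 call rested on the highest library. Without replicate 3 of PKA KD, the library at 570 CPM, its log2 fold change was 0.22 (adjusted p = 0.14), and with no filter on low counts the adjusted p was 0.0696. The other 7 genes were not called: Creld2 (0.43), Hspa5 (0.29), Hyou1 (0.20), Sdf2l1 (0.15), Calr (0.13), Hsp90b1 (0.12) and Herpud1 (-0.11). The median over the 10 genes was 0.24, against 0.01 over all genes.

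**Figure D4:**
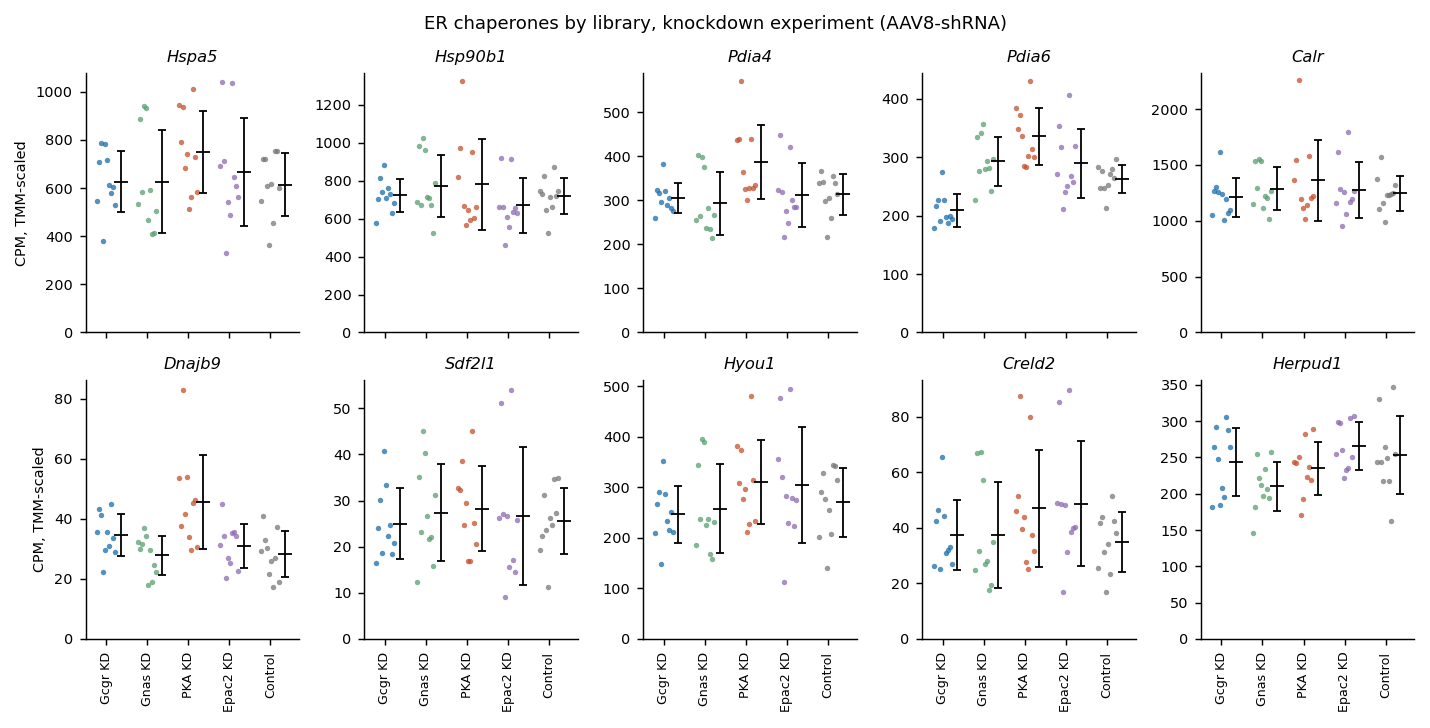
Level of each of the 10 genes in every library of experiment 1, in CPM scaled by TMM factors; points are libraries, and the bar beside them is the mean with the SD of 10 libraries. Dnajb9 in PKA KD (29.8 to 83.0 CPM) reaches above Control (17.2 to 41.1 CPM), Pdia6 is lowest in Gcgr KD (178 to 274 CPM), and the other genes overlap broadly.

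PKA KD changed other ER genes in both directions, where 17.7% of all genes were called higher and 14.8% lower. Of 20 other ER chaperones and co-chaperones 5 rose and 6 fell. Fkbp11 (1.09 ± 0.18) and Fkbp7 (0.67 ± 0.16), prolyl isomerases, and Sil1 (0.38 ± 0.06), an exchange factor of BiP, rose, while Dnajc10, an ER disulfide reductase, fell (-0.55 ± 0.06). Of 16 isomerases and oxidases 4 rose and 4 fell, of 24 translocation and glycosylation genes 6 rose and 4 fell, of 18 exit genes 5 rose and 4 fell, and of 18 degradation genes 4 rose and 1 fell. Derl3, a degradation gene that is also on the plasma cell list, rose by 1.89 ± 0.48. Of the 14 unfolded protein response factors 4 rose (Mbtps2, the site-2 protease that cleaves Atf6, by 0.40, Atf6b by 0.33, Nfyb by 0.31) and Atf4 fell (-0.44 ± 0.09). Xbp1 (-0.02), Atf6 (0.11), Ern1 (0.24), Eif2ak3 (-0.08) and Ddit3 (0.01) were not called. Plasma and B cell markers summed to 9.39 to 26.9 CPM in PKA KD, against 4.89 to 15.1 CPM in Control, with 1 of 6 tested markers higher (Derl3) and 1 lower. Of 6 tested cholangiocyte markers 3 rose, with summed levels of 68.0 to 351 CPM in PKA KD, against 54.5 to 131 CPM in Control. The part of these cells in the result was not tested.

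With Gcgr KD, 1 of the 10 genes was called: Pdia6 was lower, where 4.33% of all genes were. Pdia6 stood at 178, 199 and 274 CPM in Gcgr KD and at 213, 268 and 297 CPM in Control, a log2 fold change of -0.33 ± 0.09 (adjusted p = 0.0198). In 6 Gcgr KD libraries Pdia6 was below every Control library. Scaling by library totals, which moved the median of all genes by 0.10, ended the call (-0.23, adjusted p = 0.0633). The other 9 genes lay between -0.13 (Hyou1) and 0.29 (Dnajb9). Of 20 other ER chaperones 1 rose (Dnajc10, 0.32) and 3 fell, with Dnajb11 (ERdj3, a secreted co-chaperone of BiP) at -0.49 ± 0.12 (adjusted p = 0.00795). None of the 14 unfolded protein response factors was called, with Xbp1 at 0.01, Atf6 at 0.06, Ern1 at 0.23, Eif2ak3 at 0.31, Atf4 at -0.02 and Ddit3 at -0.09. The exit genes Sec23b (-1.55 ± 0.11) and Ergic1 (-1.30 ± 0.06) fell in Gcgr KD. Gnas KD did not share these falls: against Gcgr KD, Sec23b was higher there by 1.55 ± 0.11 and Ergic1 by 1.47 ± 0.06. Against Control, Ergic1 was higher in Gnas KD by 0.17 ± 0.06. The cause of the falls in Gcgr KD was not tested.

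Gnas KD and Epac2 KD called none of the 10 genes against Control, where 15.2% and 4.56% of all genes were called in either direction. With Gnas KD the values lay between -0.27 (Herpud1, adjusted p = 0.0943) and 0.16 (Pdia6), and with Epac2 KD between -0.10 (Hsp90b1) and 0.48 (Creld2, 95% interval -0.05 to 1.01). Herpud1 stood at 146, 210 and 257 CPM in Gnas KD, 221, 257 and 307 CPM in Epac2 KD and 162, 247 and 347 CPM in Control. The ER genes that fell with Gnas KD included P4hb (-0.66 ± 0.06) and Rpn1, a subunit of oligosaccharyltransferase (-0.68 ± 0.08), and Eif2ak3 was the unfolded protein response factor that rose (0.33 ± 0.12, adjusted p = 0.0476). With Epac2 KD, Lman1, a cargo receptor for ER exit (-0.73 ± 0.08), Srpr (-0.55 ± 0.07) and Dnajc1 (-0.52 ± 0.08) fell, and none of the 14 factors was called. In Gnas KD, Xbp1 stood at 0.19, Atf6 at -0.10, Ern1 at 0.19, Atf4 at -0.14 and Ddit3 at 0.15; in Epac2 KD, these 5 and Eif2ak3 lay between -0.14 and 0.14.

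Among comparisons between knockdowns, Pdia6 and Pdia4 were called in 3 each, Dnajb9 in 2 and Herpud1 in 1. For Pdia6, PKA KD held 283 to 431 CPM and Gcgr KD 178 to 274 CPM, with no overlap, a log2 fold change of 0.68 ± 0.09 (adjusted p = 7.61e-08). The share of all genes without overlap there is not given here, and 31.7% were called in either direction. Pdia4 was the other of 2 genes called in PKA KD against Gcgr KD (0.34 ± 0.12), where 17.3% of all genes were called higher. Pdia6 was also the 1 gene called higher in Gnas KD against Gcgr KD (0.49 ± 0.09, where 2.37% of all genes were) and in Epac2 KD against Gcgr KD (0.47 ± 0.09, where 11.1% were). Dnajb9 and Pdia4 were the 2 genes called higher in PKA KD against Gnas KD (0.71 and 0.40, where 18.4% of all genes were) and in PKA KD against Epac2 KD (0.55 and 0.31, again 18.4%). Without replicate 3 of PKA KD, Pdia4 was not called against Gcgr KD (0.26, adjusted p = 0.0765) or Epac2 KD (0.23, adjusted p = 0.121). With scaling by library totals, which moved the median of all genes by 0.16 in PKA KD against Epac2 KD, Hsp90b1 (0.38), Pdia6 (0.38) and Calr (0.26) were called there too. Herpud1 was lower in Gnas KD than in Epac2 KD (-0.34 ± 0.11, adjusted p = 0.019, where 12.8% of all genes were lower); with scaling by library totals the value was -0.22 (adjusted p = 0.13). By mean log2 CPM, 7 of the 10 genes were highest in PKA KD, and the share of all genes highest there is not given here. Of 40 neighbouring pairs of groups only 2 differed: Pdia4 in PKA KD above Control, and Pdia6 in Control above Gcgr KD.

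Within groups, 7 of the other 9 genes varied closely with Hspa5, Dnajb9 followed it more loosely, and for Herpud1 no relation with Hspa5 was detected. For each gene the group mean of log2 CPM was subtracted, and the 50 deviations of experiment 1 and the 40 of experiment 2 were correlated. With Hspa5, Hyou1 had Pearson's r of 0.957 in experiment 1 and 0.967 in experiment 2 (Spearman's rho 0.946 and 0.971), and Creld2 had 0.938 and 0.922. Pdia4 had 0.900 and 0.926, Hsp90b1 0.781 and 0.874, Sdf2l1 0.827 and 0.770, Pdia6 0.787 and 0.766, and Calr 0.723 and 0.828. Each of these gave the smallest p that 100000 permutations can give, 1e-05, or 1.2e-05 adjusted over the 18 relations tested. Without the 2 libraries farthest from the median of Hspa5, r for Hyou1 was 0.950 and 0.960.

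Dnajb9 followed Hspa5 more loosely, with r of 0.730 (adjusted permutation p = 1.2e-05) and 0.546 (adjusted permutation p = 0.000855). Herpud1 had r of 0.0178 with Hspa5 in experiment 1 (rho 0.0398, permutation p = 0.902) and 0.0649 in experiment 2 (rho 0.0182, permutation p = 0.719). Among all pairs without Herpud1, 36 in each experiment, the median r was 0.813 and 0.849 and the lowest 0.307 and 0.0765. The lowest pair of experiment 2 was Dnajb9 with Sdf2l1, and Dnajb9 also had r of 0.130 with Pdia6, 0.159 with Hsp90b1 and 0.177 with Calr there, below its 0.208 with Herpud1. Among the 9 pairs with Herpud1 the median r was 0.0449 and 0.0701, and the highest was 0.165 and 0.208. Within single groups of 10 libraries, r of Hspa5 with Hyou1 was between 0.935 and 0.987, and r with Herpud1 between -0.728 (Prkar1a KD + Gcgr mAb) and 0.517 (Prkar1a KD + Control mAb). All genes of a library share its depth and scaling factor; with scaling by library totals the median of pairs without Herpud1 was 0.757 and 0.839. Without the library with pancreatic transcripts it was 0.850 in experiment 2.

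**Figure D5:**
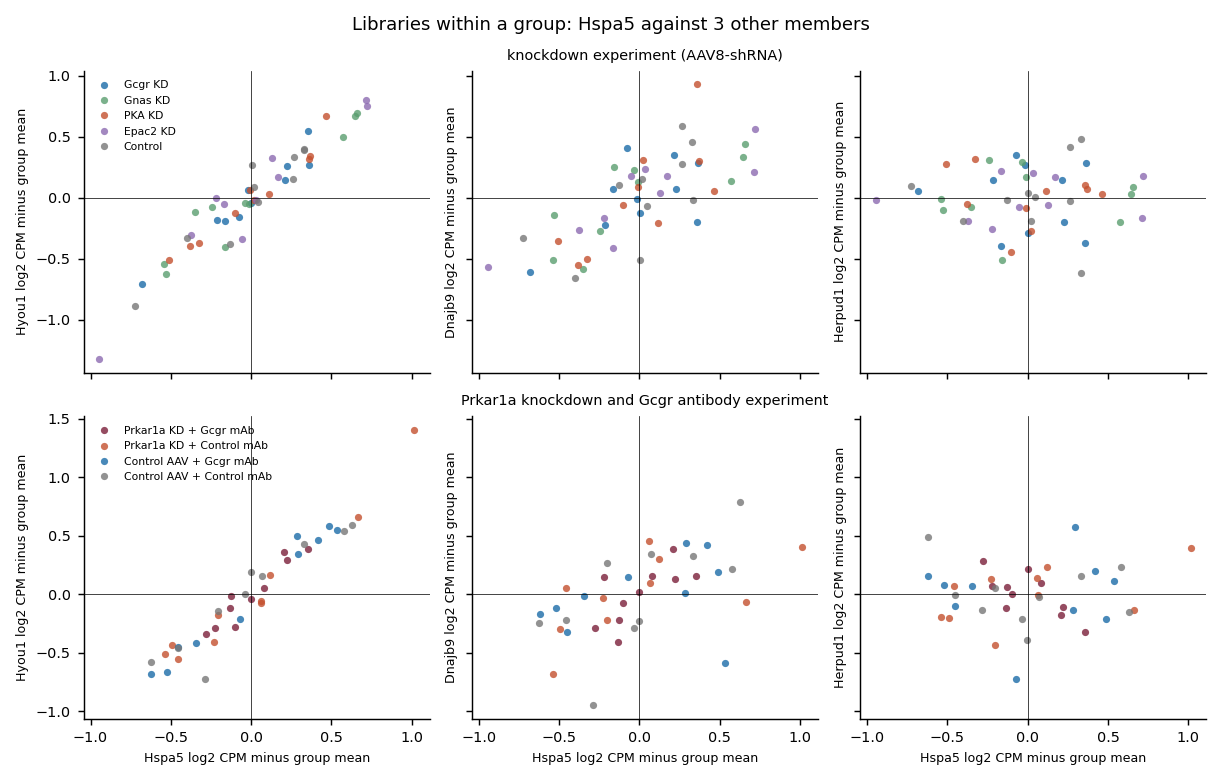
Deviation of log2 CPM from the group mean in each library, with Hspa5 on the x axis and Hyou1, Dnajb9 or Herpud1 on the y axis; the upper row shows 50 libraries of experiment 1 and the lower row 40 of experiment 2, coloured by group. Hyou1 lies along a line (r of 0.957 and 0.967), Dnajb9 scatters more widely (0.730 and 0.546) and Herpud1 shows no slope (0.0178 and 0.0649).

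The widest spreads between libraries of a group were those of Sdf2l1 and Creld2. Sdf2l1 ranged 5.94-fold in Epac2 KD, between 9.08 and 54.0 CPM, and 5.21-fold in Prkar1a KD + Control mAb, and Creld2 ranged 5.35-fold and 5.06-fold in the same groups. Calr varied least in Control AAV + Control mAb (1.23-fold, between 762 and 941 CPM). Within groups, the mean of the 10 genes had r of -0.461 with the TMM factor in experiment 1 and -0.168 in experiment 2. Its r with the library total was -0.0853 and -0.131. Permutation p-values, adjusted over 24 relations, were 0.0384 and 0.469 for the TMM factor and 0.66 and 0.469 for the library total. With plasma and B cell markers the mean of the 10 genes had r of 0.533 and 0.245 (adjusted permutation p = 0.00792 and 0.369). These values were 0.0833 and 0.0795 once Derl3 and Mzb1, which secretory cells of other types also express, were left out of that list. With pancreatic acinar markers r was 0.370 and 0.309 (adjusted permutation p = 0.0941 and 0.22), and Spearman's rho was 0.407 and 0.159 (adjusted permutation p = 0.0444 and 0.529). The part of these measures in the shared variation was not tested.

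The genes outside the 10 that followed their mean most closely within groups included ER chaperones, an ER oxidase and genes of ER degradation. Over 10509 genes with a mean log2 CPM of at least 1 in both experiments, ranked by the smaller of the 2 values of r, the closest 8 were Manf (0.916), Dnajb11 (0.897), Syvn1 (0.864), Ero1b (0.838), Dnajc3 (0.822), Hsph1 (0.820), Gmppb (0.817) and Sel1l (0.812). Syvn1 (HRD1) is a ubiquitin ligase of ER degradation and Sel1l its partner, Ero1b an ER oxidase, Dnajc3 (p58IPK) a J-domain co-chaperone, Hsph1 a cytosolic exchange factor of HSP70, and Gmppb makes the mannose donor for glycosylation. The 10 genes themselves, which enter the mean, ranked between 1 and 11 except Dnajb9 (258) and Herpud1 (2323). In Prkar1a KD + Gcgr mAb against Control AAV + Control mAb, 6 of the 8 fell, where 24.2% of all genes tested were called lower. These were Manf, Gmppb (-0.70 ± 0.14), Ero1b (-0.57 ± 0.15), Sel1l (-0.45 ± 0.10), Dnajc3 (-0.37 ± 0.08) and Dnajb11 (-0.33 ± 0.11). In Prkar1a KD + Control mAb, 4 of the 8 fell, where 26.9% of all genes were called lower. These were Gmppb (-0.56), Ero1b (-0.37), Sel1l (-0.32) and Dnajc3 (-0.24), while Hsph1 rose by 0.61 ± 0.19. The 8 were chosen for varying with the mean of the 10 genes, so their falls are not an independent result. Of the 8, 6 had a promoter entry; the ERSE was in Dnajc3, Ero1b and Syvn1 and the ERSE-II in Dnajb11.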

How the data were processed

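As deposited, the authors' values are expected counts per gene, taken as such because part of them are fractional, in 1 table for each experiment, with 24475 Entrez gene IDs. Of the values, 8.69% and 8.55% have a fractional part. Per the submitters' processing notes, bcl2fastq (2.17), FastQC and the mouse build GRCm38 (mm10) were used; no source used here names the aligner or counter. Per the labels' protocols, polyA RNA was selected and made into strand-specific libraries with 12 cycles of PCR amplification. Duplicate molecules cannot be told apart in such counts.

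Counts were rounded and tested per experiment with edgeR 4.0.16 in R 4.3.3 (filterByExpr, TMM factors, robust quasi-likelihood fit over all groups of the experiment), with Benjamini-Hochberg adjustment over the 13574 genes of experiment 1 or 12847 of experiment 2 and a threshold of 0.05. Levels are CPM over TMM-scaled totals, divided by exon length where so stated. The fit was tested on simulated data. Alternatives were RLE scaling, library totals, no filter, DESeq2 1.42.0, the replicate number as a block, and 6 libraries left out singly, chosen after seeing the data. No pair of libraries in a group agreed within sampling noise. The 10 genes are named in every comparison; from each other list at most 3 called genes per direction with a mean log2 CPM of at least 1 could be named, the sensors and factors Xbp1, Atf6, Ern1, Eif2ak3, Atf4 and Ddit3 always, and the 8 genes most alike. The members and lists were chosen with earlier results of these data known. Correlations used Python 3.11.15 with scipy 1.17.1 and 100000 permutations.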

Additional observations from a re-analysis of the deposited data

Results flagged for a closer look

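Of 90 sets of 10 libraries, 1 for each gene and group, 11 had a highest library that stood apart. Its gap to the next exceeded 0.466 of the range, Dixon's critical value. For independent sets of normal values, chance flags about 1 in 20 sets. The CPM were not log-transformed and the sets share libraries, so the 11 cannot be measured against that rate. They came from 4 libraries. In Gcgr KD, replicate 5 stood apart for Pdia4 (382 CPM, next 323), Pdia6 (274 CPM, next 227), Calr (1612 CPM, next 1305) and Creld2 (65.6 CPM, next 46.4). In PKA KD, replicate 3 stood apart for Pdia4 (570 CPM, next 439), Calr (2256 CPM, next 1576) and Dnajb9 (83.0 CPM, next 54.0). In Prkar1a KD + Control mAb, replicate 1 stood apart for Sdf2l1 (52.0 CPM, next 28.8), Hyou1 (309 CPM, next 184) and Creld2 (59.2 CPM, next 34.1). In Control AAV + Gcgr mAb, replicate 3, the library with pancreatic transcripts, stood apart for Sdf2l1 (48.4 CPM, next 28.8).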

How the results depend on the processing

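Of 32 calls among the 10 genes, 23 held under RLE scaling, library totals, no filter, DESeq2 and the replicate block. Single genes were recomputed for 1090 values. No value called in the reported or the alternative fit reversed its direction. Changes of sign among values called in neither fit were not counted. With scaling by library totals, the calls fell to 0 of 10 for Gcgr KD against Control and came to 5 of 10 for PKA KD against Epac2 KD (2 in the reported fit); with no filter PKA KD against Epac2 KD gave 1. Without PKA KD replicate 3, PKA KD against Gcgr KD and against Epac2 KD gave 1 call each. Without Prkar1a KD + Control mAb replicate 1, that group gave 5 calls against Control AAV + Control mAb and 5 against Control AAV + Gcgr mAb. Hsp90b1 in Prkar1a KD + Gcgr mAb against Control AAV + Gcgr mAb also missed the threshold with library totals (adjusted p = 0.156), no filter (0.0748) and the replicate block (0.0694), and Hyou1 with library totals (0.0608) and no filter (0.0552). The causes were not tested. After group means were subtracted, 10 of 50 and 3 of 40 libraries correlated best with a library of their own number from another group. In each other group, 1 of 10 libraries carries that number. The median r was 0.0448 for equal and -0.0037 for different numbers in experiment 1. In experiment 2 these medians were -0.0049 and -0.0078. Pairing by number was not tested. With the replicate block, 1017 genes were called in Gcgr KD against Control, and 981 without it, and the count among the 10 genes stayed 1. Intervals were widest for Creld2 and Sdf2l1; the part of depth in them was not tested.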

Other observations

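The genes most like Herpud1 within groups were looked for after its separation from the other 9 had been seen, so their values are a description. The closest by the smaller r of both experiments were Kcnk5, a potassium channel (0.511 in experiment 1, 0.610 in experiment 2), Slc35e2 (0.475 and 0.484), Il6ra, the interleukin 6 receptor (0.617 and 0.473), Per2, a circadian clock repressor (0.470 and 0.507), and Naa60, an acetyltransferase (0.502 and 0.465). Per2 fell with Prkar1a KD, by a log2 fold change of -1.18 in Prkar1a KD + Gcgr mAb (adjusted p = 7.24e-05) and -1.80 in Prkar1a KD + Control mAb (adjusted p = 6.13e-08), both against Control AAV + Control mAb. Il6ra was lower in Prkar1a KD + Gcgr mAb (-0.37, adjusted p = 0.0238). Naa60 fell in Gcgr KD (-0.70, adjusted p = 1.59e-12), where Herpud1 stood at -0.06 and was not called. Comparison values of Kcnk5 and Slc35e2 are not given here, so whether the genes most like Herpud1 share its fall is not shown.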
